A study of Mus musculus with 37 samples.

Results

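The Rhox family is a set of homeobox genes that lie side by side on the mouse X chromosome. Its members were taken as every gene whose symbol starts with Rhox in the deposited expression tables, which gave 30 of 24318 genes. None of the 30 has the symbol Rhox5, so that member of the family is not covered here. Of these, 16 had a mean of at least 1 RPKM in at least 1 of the tables, 15 of them at E10.5 and all 16 at E11.5, and are described by name. RPKM counts reads relative to the length of the transcript and to the mapped reads of the library. The study sequenced polyadenylated RNA from mouse primordial germ cells (PGCs), from which eggs and sperm later arise and which were sorted by a green fluorescent reporter. All groups came from 1 cross, in which the mothers carried the reporter Oct4-IRES-Gfp and were homozygous for Dnmt12lox, a conditional Dnmt1 allele, and the fathers carried Blimp1-Cre, a recombinase driven from a gene that is active in early PGCs. The conditional knockout (DCKO) has the genotype label Dnmt1 -/- and the controls wild type, and the Dnmt1 alleles of the fathers are not stated in the labels. The E10.5 libraries were 2 DCKO females, 1 DCKO male, 2 control females and 2 control males. The E11.5 libraries were 6 DCKO females, 4 DCKO males, 4 control females and 4 control males. A further 12 samples, of stage E13.5, are not analysed here. Whether each library is a separate embryo is not stated in the labels, so p-values measure the spread between these libraries, which may be technical.

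Rhox genes encode homeodomain transcription factors that are expressed mainly in reproductive tissues: testis, ovary, placenta and the germ line. Dnmt1 copies DNA methylation to the new strand when DNA is replicated. In cells of the embryo proper, DNA methylation holds most of the Rhox cluster silent, and loss of methyltransferases is known to release it. PGCs erase most of their methylation in the days around the stages sampled here, and the comparison here is of the cluster in PGCs with and without Dnmt1. Rhox6 and Rhox9, once named Psx1 and Psx2, were first described in the placenta. Rhox10 acts in spermatogonia, and Rhox13 is known from germ cells of the fetal gonad. Rhox2, Rhox3 and Rhox4 were each duplicated many times in the mouse.

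DNA methylation in mammals sits on the dinucleotide CG, so the promoters are shown with each CG in capitals. Promoter sequences span 300 bases around the start of transcription, most of them upstream, are written 5′ to 3′ on the strand of the gene, and come from RefSeq on build GRCm38.p6. This is not the build of the expression tables, mm9. Of the 30 Rhox genes, 24 matched the promoter table. The 6 shown are those with the most and the fewest CG (Rhox4a and Rhox1), the copies that led the Rhox4 and Rhox2 groups in most control females or on average at E11.5 (Rhox4c and Rhox2d), a second Rhox2 copy for comparison (Rhox2a), and Rhox13. They are Rhox4a (chrX:37265125-37265424, plus strand), Rhox4c (chrX:37480087-37480386, plus strand), Rhox2a (chrX:37244742-37245041, plus strand), Rhox2d (chrX:37493160-37493459, plus strand), Rhox13 (chrX:38120590-38120889, plus strand) and Rhox1 (chrX:37222209-37222508, minus strand).
Rhox4a: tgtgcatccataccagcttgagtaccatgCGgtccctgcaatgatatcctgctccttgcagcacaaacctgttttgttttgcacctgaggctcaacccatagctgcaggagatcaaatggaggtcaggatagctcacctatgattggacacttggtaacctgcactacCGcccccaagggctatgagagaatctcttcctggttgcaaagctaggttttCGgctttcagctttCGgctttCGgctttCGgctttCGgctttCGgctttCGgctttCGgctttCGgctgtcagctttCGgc
Rhox4c: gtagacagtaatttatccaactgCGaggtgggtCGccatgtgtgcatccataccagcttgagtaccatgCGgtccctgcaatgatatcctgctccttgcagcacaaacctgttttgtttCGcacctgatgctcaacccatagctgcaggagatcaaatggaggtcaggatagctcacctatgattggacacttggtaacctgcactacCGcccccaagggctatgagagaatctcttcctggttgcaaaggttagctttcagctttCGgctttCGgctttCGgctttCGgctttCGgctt
Rhox2a: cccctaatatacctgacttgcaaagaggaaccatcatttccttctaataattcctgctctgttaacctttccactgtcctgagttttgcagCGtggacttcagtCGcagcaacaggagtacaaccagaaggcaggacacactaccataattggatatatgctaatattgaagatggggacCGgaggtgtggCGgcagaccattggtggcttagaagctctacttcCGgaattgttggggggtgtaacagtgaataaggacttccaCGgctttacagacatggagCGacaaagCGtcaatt
Rhox2d: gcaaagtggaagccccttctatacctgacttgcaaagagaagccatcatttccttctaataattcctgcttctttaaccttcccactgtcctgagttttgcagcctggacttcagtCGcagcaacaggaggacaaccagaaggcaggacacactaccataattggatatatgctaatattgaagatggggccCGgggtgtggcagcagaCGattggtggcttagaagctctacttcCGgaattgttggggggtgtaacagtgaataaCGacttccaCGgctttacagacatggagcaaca
Rhox13: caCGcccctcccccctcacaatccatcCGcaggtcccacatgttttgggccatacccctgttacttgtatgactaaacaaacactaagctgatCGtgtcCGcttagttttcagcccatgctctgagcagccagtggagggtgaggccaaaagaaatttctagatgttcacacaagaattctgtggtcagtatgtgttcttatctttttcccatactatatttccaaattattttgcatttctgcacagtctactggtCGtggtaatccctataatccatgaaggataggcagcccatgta
Rhox1: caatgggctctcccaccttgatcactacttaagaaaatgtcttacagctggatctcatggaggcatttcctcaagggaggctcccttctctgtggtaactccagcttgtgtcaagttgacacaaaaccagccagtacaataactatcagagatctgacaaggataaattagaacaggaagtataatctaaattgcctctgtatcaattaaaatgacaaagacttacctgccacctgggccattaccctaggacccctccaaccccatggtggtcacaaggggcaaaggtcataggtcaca

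The Rhox4a promoter held 12 CG dinucleotides, the most of the 24 Rhox promoters, and the Rhox1 promoter held 0, the fewest. Rhox4c held 10, Rhox2a held 8, Rhox2d held 6 and Rhox13 held 5. The median over the 24 Rhox promoters was 7, the same as over all 32851 promoters of the table. At least 1 CG was present in 23 of the 24 (95.8%) and in 94.6% of all promoters. The capitals at the right end of the Rhox4a and Rhox4c lines fall at even steps, because the motif CGGCTTT is repeated there. Searched on both strands without overlap, it occurred 8 times in the Rhox4a promoter and 4 times in that of Rhox4c. All 6 Rhox4 promoters in the table held it (1 to 8 copies), as did 7 of the other 18 Rhox promoters (at most 1 copy) and 2.46% of all promoters. Only 3 promoters of the 32851 held 4 or more copies, and these were Rhox4a, Rhox4c and Rhox4f. The motif and this limit were chosen after the sequences were seen.

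Copies within the family resemble each other closely, which bears on every value of a single copy. By coding sequences from the GENCODE M21 annotation, which covered all 30 genes, the 8 Rhox2 copies were 93.8% to 99.7% identical in pairs (median 95.9%). The 7 Rhox4 copies were 98.2% to 99.7% identical (median 99.0%). The 6 Rhox3 copies were at least 73.8% identical, with a median of 98.6%. Rhox6 and Rhox9 were 90.8% identical, whereas Rhox6 shared 53.2% with Rhox2a and 53.0% with Rhox7a. How reads that match several copies were assigned is not given in the sources used here. Values of single Rhox2, Rhox3 and Rhox4 copies are therefore uncertain, and sums are given beside them for Rhox2 and Rhox4. Rhox6 and Rhox9 may also share some reads.

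Several features of the libraries touch the Rhox values. At both stages Dnmt1 itself was lower in all DCKO libraries than in all controls, with means of 29.6 ± 16.3 RPKM (SD, n = 10) against 130 ± 76.6 RPKM (SD, n = 8) at E11.5. The sex labels matched Eif2s3y, a Y-linked gene, which lay at 19.4 RPKM or more in every male and at 0.275 RPKM or less in every female library. Xist, the RNA of the inactive X, separated the sexes at E10.5 (5.17 to 32.4 RPKM in females, 0.827 to 3.47 RPKM in males) but overlapped at E11.5 (2.64 to 125 RPKM and 0.0538 to 4.96 RPKM). Markers of PGCs (11 genes, among them Pou5f1, Dppa3 and Kit) had a mean log2(RPKM + 1) of 5.86 over the E11.5 libraries, and 44 markers of other cells (gonadal soma, trophoblast, mesenchyme, endothelium, macrophages and the erythroid line) had a mean of 1.26. At E11.5 3 libraries stood apart with high somatic and low PGC markers: male control 3 (3.49 for somatic and 3.37 for PGC markers), female DCKO 4 (2.97 and 5.00) and male DCKO 1 (1.93 and 5.03). The next highest in somatic markers was female control 3 (1.74 and 6.24). At E10.5 erythroid markers were high in female control 1 (4.80), male DCKO 1 (5.03) and male control 2 (5.04). They lay at 0.45 to 0.68 in the other E10.5 libraries. Over all 44 somatic markers male control 2 was the highest at E10.5 (2.19), and PGC markers ran from 6.26 to 6.99 at that stage. Of the PGC markers, Nanos3 was listed at 0 in 2 of the 18 libraries. Trophoblast markers, which matter here because the placenta expresses Rhox genes, had a mean of 0.13 to 0.72 per E11.5 library, with Tpbpa listed at 0 in all 18, Prl3d1 in 17 and Elf5 in 16. The other trophoblast markers were present at low levels: Gcm1 had a median of 1.58 RPKM (up to 4.81 RPKM, and up to 48.1 RPKM at E10.5), Cdx2 a median of 0.74 RPKM (up to 9.37 RPKM) and Eomes one of 0.0323 RPKM (up to 2.43 RPKM). Depth is unknown, because the tables hold RPKM only. Since a failed estimate may also appear as 0, a gene with that value is described as listed at 0.

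Nearly all RNA of the Rhox genes covered here came from Rhox9 and Rhox6. At E10.5 Rhox9 averaged 962 RPKM over the 7 libraries and ranked 138th of 24318 genes, and Rhox6 averaged 617 RPKM and ranked 198th. At E11.5 they averaged 613 RPKM (rank 176) and 314 RPKM (rank 312) over the 18 libraries. Their share of the summed Rhox RPKM was 94.9% and 92.2% at these stages. The stages were deposited as separate tables and may have been normalized separately, so these levels stand side by side without a test between stages. Rhox9 exceeded Rhox6 in all 25 libraries. The ratio of Rhox9 to Rhox6 was 1.58 ± 0.162 at E10.5 (SD, n = 7) and 1.96 ± 0.516 at E11.5 (SD, n = 18, from 1.38 to 3.54).

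Behind them the order was loose. Rhox7a came next at both stages, with 23.2 ± 20.9 RPKM (SD, n = 7) and 14.5 ± 13 RPKM (SD, n = 18), and lay below Rhox6 in every library. From Rhox7a downwards, each gene's mean at E11.5 differed from the next by less than the SD between libraries. The means ran from 10.3 RPKM for Rhox2d down to 1.13 RPKM for Rhox4d. Rhox4d was the described gene nearest the limit of 1 RPKM at E11.5 and Rhox2c (1.35 RPKM) at E10.5, while the nearest genes under it were Rhox10 (0.138 RPKM) and Rhox4g (0.418 RPKM). The 14 genes under the limit at both stages were Rhox10, Rhox11, Rhox12, Rhox2e, the 6 Rhox3 copies, Rhox4b, Rhox4e, Rhox4f and Rhox4g. Of these, 7 were listed at 0 in all 25 libraries (Rhox11, Rhox12, Rhox2e, Rhox3a, Rhox3e, Rhox3f and Rhox3g). The highest value among the 14 was 2.66 RPKM for Rhox10, in an E10.5 DCKO female.

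**Figure D1:**
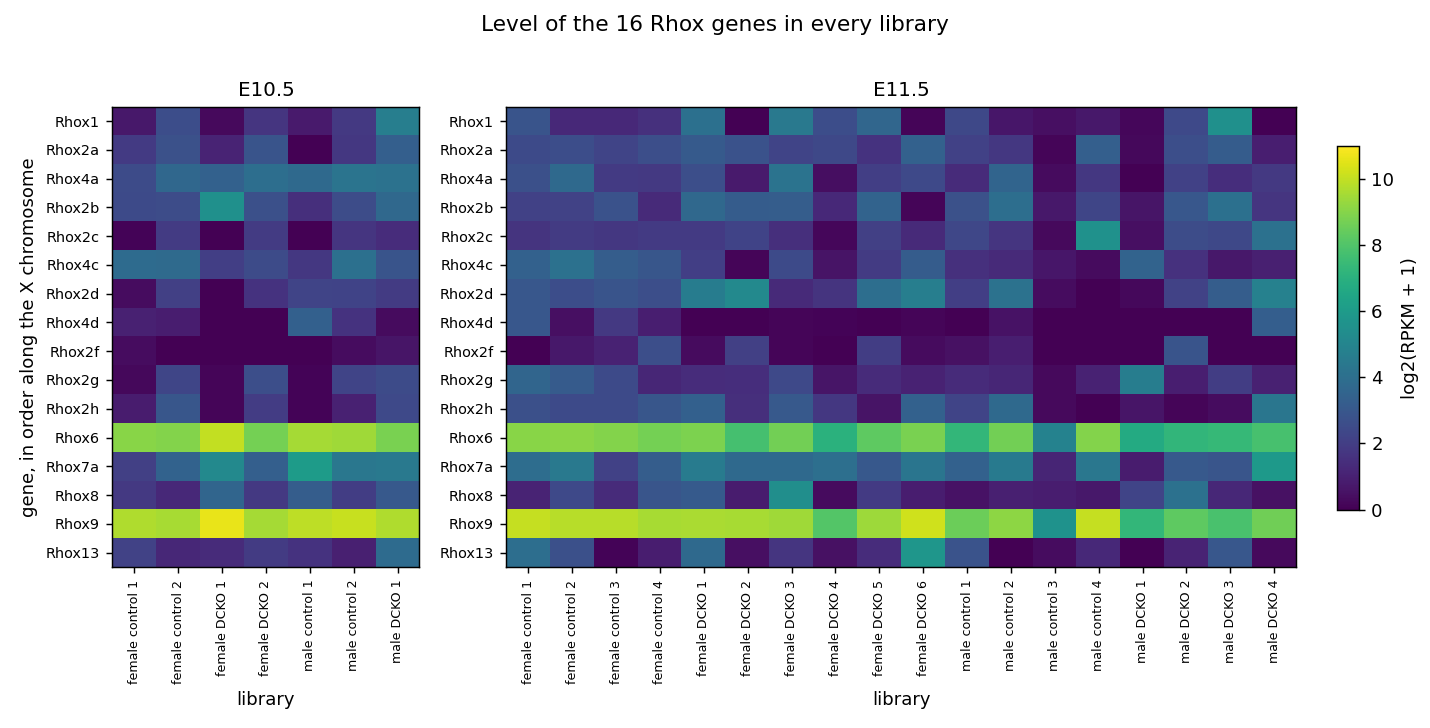
Levels of the 16 described Rhox genes in every library, as log2(RPKM + 1) on a shared colour scale, with genes in their order along the X chromosome and libraries ordered by sex and genotype at E10.5 (left) and E11.5 (right). Rhox6 and Rhox9 are the highest genes in every library, and the other 14 vary between libraries of the same group.

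Rhox9 showed no difference between genotypes beyond the spread of the libraries. At E10.5 it lay at 829 and 751 RPKM in control females, at 958 and 1081 RPKM in control males, at 1571 and 729 RPKM in DCKO females and at 815 RPKM in the DCKO male. The highest and the lowest value thus both came from DCKO females. The E10.5 estimate of DCKO minus control was 0.14 on the log2(RPKM + 1) scale (SE 0.37, 95% interval -0.71 to 0.99, limma adjusted p = 0.991). At E11.5 Rhox9 lay at 1057, 902, 907 and 746 RPKM in control females and at 362, 562, 47.7 and 1037 RPKM in control males. DCKO females ranged from 261 to 1182 RPKM with a median of 726 RPKM (n = 6), and DCKO males lay at 155, 309, 227 and 396 RPKM. Genotypes overlapped within each sex, and the lowest value of all was that of male control 3. The E11.5 estimate was -0.38 (SE 0.44, 95% interval -1.30 to 0.55, limma adjusted p = 0.969), averaged over both sexes.

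Rhox6 likewise showed no difference between genotypes beyond the spread of the libraries. At E10.5 it lay at 531 and 492 RPKM in control females, at 729 and 689 RPKM in control males, at 1009 and 421 RPKM in DCKO females and at 446 RPKM in the DCKO male. Here too DCKO females held both extremes, and the estimate was -0.06 (SE 0.40, 95% interval -0.97 to 0.86, limma adjusted p = 0.993). At E11.5 it lay at 523, 543, 504 and 408 RPKM in control females and at 154, 403, 28.3 and 497 RPKM in control males. DCKO females ranged from 129 to 457 RPKM with a median of 353 RPKM (n = 6), and DCKO males lay at 106, 152, 164 and 218 RPKM. The DCKO groups had the lower means in both sexes (324 against 495 RPKM in females and 160 against 270 RPKM in males), with overlap in each. The E11.5 estimate was -0.44 (SE 0.43, 95% interval -1.34 to 0.45, limma adjusted p = 0.951). Both genes' E11.5 estimates moved with single control males: without male control 3 they were -0.87 for Rhox6 and -0.83 for Rhox9, and without male control 4 they were -0.19 and -0.09. Within sets of one sex whose titles share the number ahead of the dash, DCKO lay below control in 5 of 6 sets for Rhox6 (differences of -1.96 to 0.10 on the log2 scale) and in 5 of 6 for Rhox9 (-1.79 to 0.66). What that number stands for is not stated, and the share of all genes with such agreement was not computed.

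**Figure D2:**
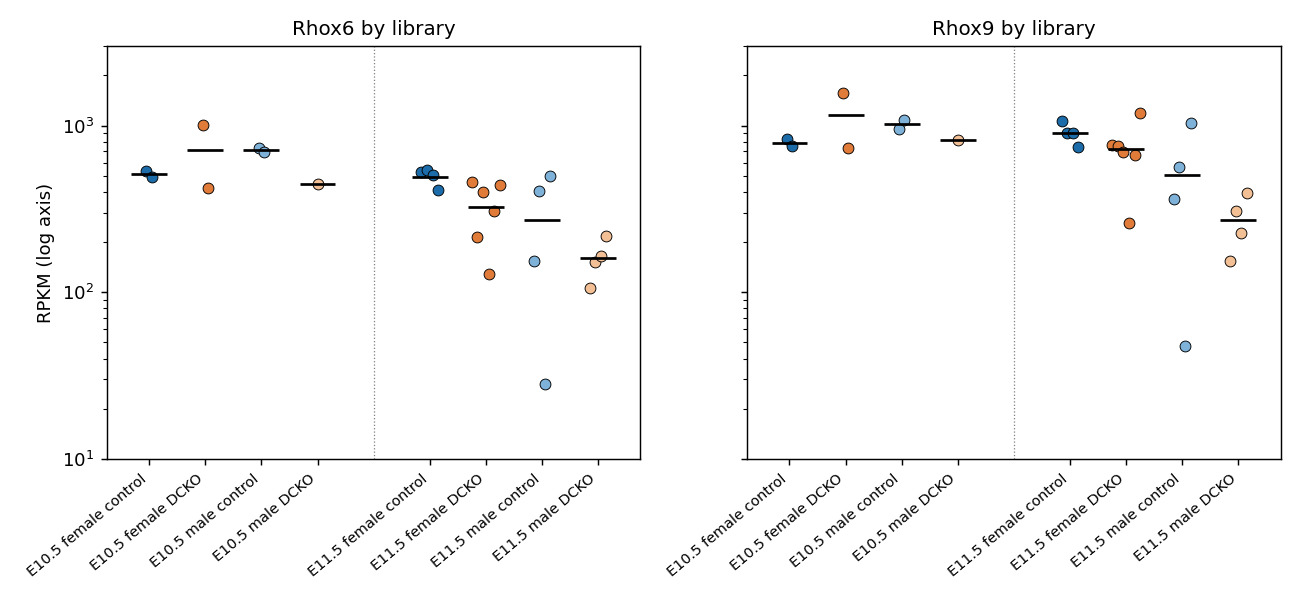
RPKM of Rhox6 (left) and Rhox9 (right) on a log axis, 1 point per library, by stage, sex and genotype; the bars mark group means. DCKO and control points overlap in both sexes at E11.5, and the lowest point in each panel is male control 3, at 28.3 and 47.7 RPKM.

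The described genes at lower levels outside the Rhox2 and Rhox4 copies, Rhox7a, Rhox8, Rhox13 and Rhox1, varied widely from library to library. Rhox8, known from Sertoli cells of the testis, ranged from 1.16 to 6.45 RPKM in control females (1.16, 4.41, 1.58 and 6.45 RPKM) and lay at 0.439, 0.959, 0.811 and 0.633 RPKM in control males at E11.5. DCKO females ranged from 0.243 to 42.7 RPKM, and DCKO males lay at 3.79, 16.1, 1.31 and 0.396 RPKM. All control females lay above all control males, whereas DCKO females and males overlapped. The estimate of DCKO minus control was 0.68 (SE 0.64, limma adjusted p = 0.949) at E11.5 and 0.88 (SE 0.71, limma adjusted p = 0.991) at E10.5.

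Rhox1, the gene whose promoter holds no CG in the 300 bases shown, lay at 6.25, 1.38, 1.37 and 1.91 RPKM in control females and at 4.24, 0.579, 0.361 and 0.628 RPKM in control males at E11.5. DCKO females ranged from 0 to 20.6 RPKM, and DCKO males lay at 0.158, 4.43, 44.2 and 0 RPKM, so the DCKO group held both the highest values and the zeros. At E10.5 a single library, the DCKO male at 25.2 RPKM, lay above the rest (0.218 to 5.08 RPKM). It was among the E10.5 libraries with high erythroid markers, as were female control 1 and male control 2. The part of these markers in the Rhox values was not tested. The estimates were 0.87 (SE 0.77, limma adjusted p = 0.946) at E11.5 and 0.96 (SE 1.02, limma adjusted p = 0.991) at E10.5. Without that DCKO male, the E10.5 estimate was -0.67.

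Rhox13 was similarly uneven. At E11.5 it lay at 14.7, 5.39, 0.084 and 0.816 RPKM in control females and at 6.08, 0, 0.294 and 1.38 RPKM in control males. DCKO females ranged from 0.374 to 54.8 RPKM, and DCKO males lay at 0, 1.14, 7.02 and 0.212 RPKM. Each group thus spanned values near 0 and values above 5 RPKM. The E11.5 estimate was 0.17 (SE 0.76, limma adjusted p = 0.993). At E10.5 the DCKO male again had the highest value, 13.4 RPKM against 0.962 to 3.56 RPKM elsewhere; the estimate was 0.99 (SE 0.78, limma adjusted p = 0.991) and -0.07 without that library. Rhox7a, the third most abundant member, had estimates of 0.15 (SE 0.59, limma adjusted p = 0.993) at E11.5 and 0.61 (SE 0.77, limma adjusted p = 0.991) at E10.5. Its highest E11.5 value was in a DCKO male (58.7 RPKM) and its highest E10.5 value in a control male (64.3 RPKM).

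The 8 Rhox2 copies summed to similar levels in both genotypes at E11.5. Their sum was 31.8 ± 17.8 RPKM in controls (SD, n = 8) and 39.8 ± 17.7 RPKM in DCKO (SD, n = 10), from 1.68 RPKM in male control 3 to 66.7 RPKM in male DCKO 4. Control females were the most even group, with sums of 28 to 33.4 RPKM. At E10.5 the sum was 15 ± 9.7 RPKM in controls (SD, n = 4) and 35.3 ± 10.8 RPKM in DCKO (SD, n = 3), and the ranges, 5.73 to 27.2 and 24.5 to 46 RPKM, overlapped. These sums were not tested.

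Which Rhox2 copy led differed between libraries. At E11.5 6 different copies had the highest value in some library, and the leading copy held from 21.8% of the sum, in female control 3, to 93.1%, in male DCKO 1, where Rhox2g lay at 24.1 RPKM. In male control 4 Rhox2c lay at 46.2 RPKM, against at most 16.2 RPKM in any other library. Rhox2d, the most abundant copy on average, lay at 7.01, 5.12, 6.22 and 5.32 RPKM in control females and from 1.44 to 35.4 RPKM in DCKO females (median 19.1 RPKM). In males it lay at 3.11, 16.7, 0.297 and 0 RPKM in controls and at 0.165, 3.47, 8.41 and 27.3 RPKM in DCKO. The 4 highest females were DCKO, but 2 DCKO females lay below every control female. The estimate for Rhox2d was 0.88 (SE 0.71, limma adjusted p = 0.946).

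At E10.5 Rhox2b was the only Rhox gene with all DCKO libraries above all controls. It lay at 44.7 and 5.36 RPKM in DCKO females and at 12.2 RPKM in the DCKO male, against 4.6 and 4.88 RPKM in control females and 1.81 and 4.88 RPKM in control males. The second DCKO female exceeded the highest controls by little. Such separation upward was seen in 2.28% of the 11584 genes tested at E10.5, and 1 of 15 Rhox genes showed it. The estimate was 1.62 (SE 0.77, 95% interval -0.12 to 3.37, limma adjusted p = 0.991). In female DCKO 1 Rhox2b held 97.1% of the summed Rhox2 RPKM. At E11.5 Rhox2b ranged from 0.121 to 15.8 RPKM in DCKO and from 0.654 to 14.8 RPKM in control libraries, with an estimate close to 0 and well within its SE.

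The Rhox4 copies averaged lower in DCKO than in control females, with overlap. Their sum at E11.5 was 19.1 ± 8.65 RPKM in control females (SD, n = 4), 8.82 ± 7.99 RPKM in DCKO females (SD, n = 6), 5.06 ± 5.43 RPKM in control males and 7.74 ± 4.68 RPKM in DCKO males (SD, n = 4 each). Rhox4c lay at 9.76, 16, 8.46 and 6.78 RPKM in control females and ranged from 0.0996 to 8.33 RPKM in DCKO females (median 2.96 RPKM). In males it lay at 1.86, 1.46, 0.566 and 0.258 RPKM in controls and at 10.3, 1.98, 0.635 and 0.959 RPKM in DCKO. Control females lay above all control males, and 1 DCKO female reached into the range of the control females. At E10.5 the Rhox4 sum was 27.6 ± 7.17 RPKM in controls (SD, n = 4) and 18.7 ± 5.51 RPKM in DCKO (SD, n = 3). The ranges, 19.8 to 37.2 and 12.7 to 23.4 RPKM, overlapped, and the sums were not tested. Rhox4a averaged higher in DCKO at that stage, at 13.7 against 11.8 RPKM, with an estimate of 0.41 (SE 0.52, limma adjusted p = 0.991).

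Rhox4d had a lower mean than Rhox4c at both stages. At E11.5 it lay at 6.86, 0.346, 2.57 and 0.915 RPKM in control females, whereas in the 6 DCKO females it was listed at 0 in 3 and reached at most 0.124 RPKM. In males it was listed at 0 in 3 of 4 controls, with 0.45 RPKM in the other, and in 3 of 4 DCKO libraries, with 8.86 RPKM in the other. At E10.5 all 3 DCKO libraries (0, 0 and 0.251 RPKM) lay below all 4 controls (1.02, 0.859, 9.23 and 2.08 RPKM). Rhox4d was thus the only Rhox gene separated downward, at E10.5 between genotypes (2.87% of genes tested there, 1 of 15 Rhox genes) and at E11.5 between DCKO and control females (0.845% of genes tested, 1 of 16 Rhox genes). Within E10.5 sets of one sex and one title number, Rhox4c lay lower in DCKO in 3 of 3 (-1.84, -1.30 and -1.21 on the log2 scale). So did Rhox4d (-1.30 to -0.89), Rhox2c (-0.31 to -0.03) and Rhox2d (-0.46 to -0.26). Rhox8 (0.57 to 1.75) and Rhox2b (0.11 to 3.03) lay higher in 3 of 3. Number 67 gave both a female and a male set. The share of all genes that go one way in every set was not computed, so these counts are not set against chance. In the 6 such sets at E11.5, DCKO was lower in 4 for Rhox4c and in 5 for Rhox4d, and higher in 3 for Rhox8 and in 3 for Rhox2b. No Rhox4 gene passed the adjusted threshold in these comparisons. The estimates for Rhox4d were -1.47 in females at E11.5 (SE 0.62, unadjusted p = 0.0283, limma adjusted p = 1.00) and -1.44 at E10.5 (SE 0.71, unadjusted p = 0.0757, limma adjusted p = 0.991).

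**Figure D3:**
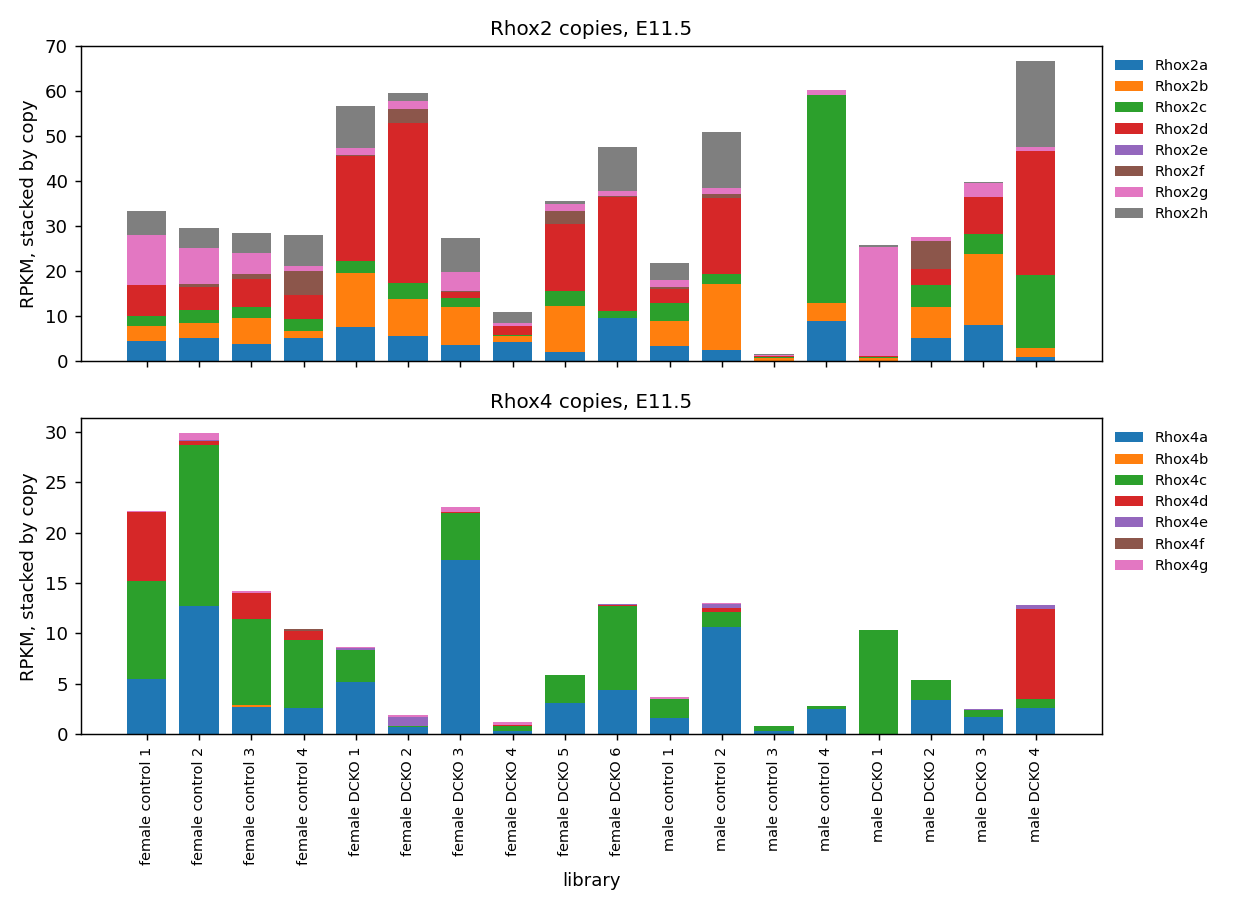
RPKM of the Rhox2 copies (top) and Rhox4 copies (bottom) in each E11.5 library, stacked so that the bar height is the sum over copies. The make-up of the Rhox2 bars changes from library to library, and the Rhox4 bars of control females (10.4 to 29.8 RPKM) include the highest of the panel, female control 2.

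No tested Rhox gene passed the threshold for a genotype difference at either stage (limma, Benjamini-Hochberg adjusted p under 0.05 over all genes tested). At E11.5 0 of 16 tested Rhox genes passed, against 0.0237% of all 12667 genes tested, and 0 of 16 had an unadjusted p under 0.05, against 5.46%. At E10.5 0 of 15 passed, against 0% of 11584 genes, and 0 of 15 had an unadjusted p under 0.05, against 3.09%. Dnmt1, the deleted gene, did not pass at E10.5 either (estimate -2.07, SE 0.38, limma adjusted p = 0.991). A Rhox gene that did not pass there may therefore still differ. The Rhox estimates at E11.5 lay on both sides of 0, 7 of 16 being positive, and their median was -0.01 (all genes: 5700 of 12667 above 0, median -0.06). At E10.5 11 of 15 lay above 0 with a median of 0.41 (all genes: 46.8%, median -0.05). No Rhox gene had all DCKO libraries apart from all controls at E11.5, where 0.00789% of genes did so upward and 0.0316% downward. The intervals are wide: for Rhox1 at E11.5 the 95% interval ran from -0.74 to 2.49, which includes differences in both directions.

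**Figure D4:**
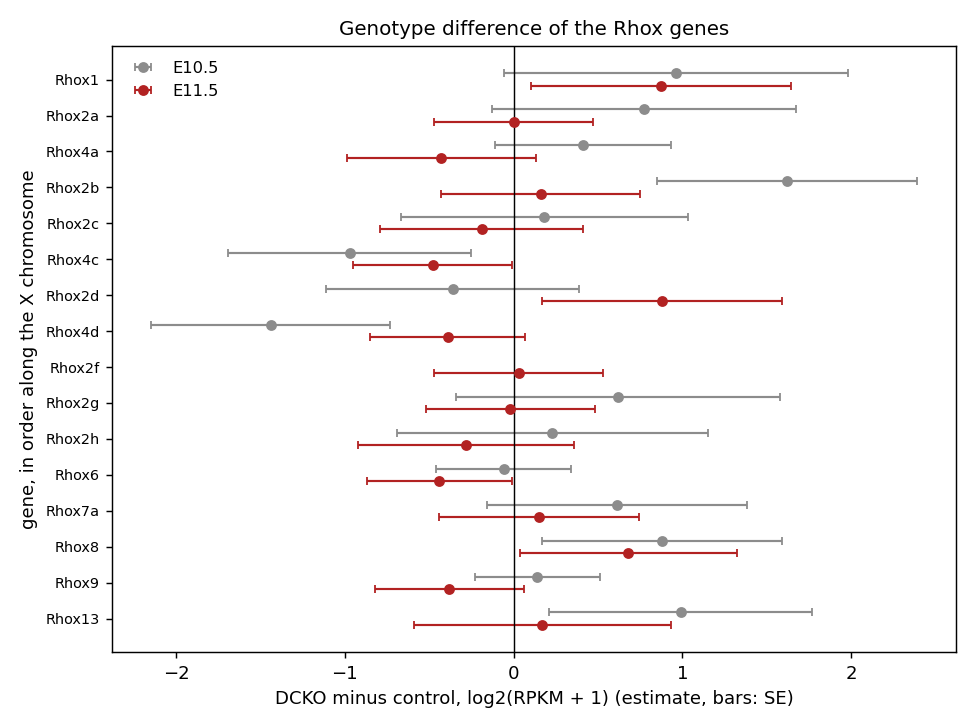
Estimated difference of DCKO minus control for each described Rhox gene on the log2(RPKM + 1) scale, at E10.5 (grey; 15 genes) and E11.5 (red; 16 genes), with bars of 1 SE. Estimates scatter on both sides of 0, from -1.44 (Rhox4d) to 1.62 (Rhox2b) at E10.5 and from -0.48 (Rhox4c) to 0.88 (Rhox2d) at E11.5.

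Since the genes are X-linked, the genotype difference was also taken within each sex at E11.5. In females 0 of 16 Rhox genes passed the adjusted threshold, against 0.00789% of genes, and 2 had an unadjusted p under 0.05, against 2.17%. These were Rhox4c (estimate -1.70, SE 0.64, unadjusted p = 0.0158) and Rhox4d, both lower in DCKO. In males 0 passed, against 0.0316% of genes, and 0 had an unadjusted p under 0.05, against 6.95%. Dnmt1 itself did not pass within females (estimate -2.10, limma adjusted p = 0.567) or within males (-2.05, limma adjusted p = 0.585). The threshold within 1 sex can thus miss a difference of that size. The male estimates of Rhox4c and Rhox4d were 0.74 (SE 0.70) and 0.69 (SE 0.68), and in each gene 1 DCKO male (10.3 and 8.86 RPKM) lay far above the other males. The test of the difference between the sexes (female minus male genotype difference) passed for 0 Rhox genes, against 0% of genes. At an unadjusted p under 0.05 it picked 3 of 16 Rhox genes, against 3.58% of all: Rhox4c (-2.44, SE 0.95, limma adjusted p = 0.995), Rhox2g (-2.39, SE 1.00, limma adjusted p = 0.995) and Rhox4d (-2.17, SE 0.92, limma adjusted p = 0.995). Rhox2g lay at 10.9, 7.96, 4.58 and 1.25 RPKM in control females and from 0.521 to 4.38 RPKM in DCKO females, with estimates of -1.21 (SE 0.67) in females and 1.17 (SE 0.74) in males. Because reads may be shared between copies, these 3 values are uncertain for single genes. Without the 3 libraries that stood apart, they were -1.50 for Rhox4c, -1.16 for Rhox2g and -2.40 for Rhox4d, and the male estimates of Rhox4c and Rhox2g were 0.04 and 0.10. The genotype estimates of somatic markers also differed between the sexes: mesenchyme markers had 8 of 9 tested estimates above 0 in females and 0 of 9 in males, endothelial markers 7 of 7 and 0 of 7, and erythroid markers 4 of 4 and 0 of 4. Macrophage markers lay above 0 in 0 of 3 in females and 1 of 3 in males, and trophoblast markers in 0 of 2 and 1 of 2. Of the PGC markers 2 of 11 lay above 0 in females (median -0.26) and 7 of 11 in males (median 0.28). Their part in the Rhox values was not tested. For Rhox6 and Rhox9 the female estimates were -0.73 (SE 0.58) and -0.44 (SE 0.59), the male ones -0.16 (SE 0.63) and -0.31 (SE 0.65), and the differences between the sexes -0.57 (SE 0.85) and -0.13 (SE 0.88).

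The estimates for Rhox6 and Rhox9 were larger between the sexes than between genotypes at E11.5, but did not pass the adjusted threshold. Rhox9 averaged 793 ± 249 RPKM in females (SD, n = 10) and 387 ± 306 RPKM in males (SD, n = 8), and Rhox6 averaged 392 ± 136 and 215 ± 157 RPKM. The female minus male estimates were 1.43 for Rhox9 (SE 0.44, 95% interval 0.50 to 2.35, unadjusted p = 0.00440, limma adjusted p = 0.774) and 1.22 for Rhox6 (SE 0.43, 95% interval 0.32 to 2.11, unadjusted p = 0.0103, limma adjusted p = 0.813). Rhox4c had an estimate of 1.26 (SE 0.47, unadjusted p = 0.0157, limma adjusted p = 0.822). These 3 of 16 Rhox genes had an unadjusted p under 0.05, against 5.70% of all genes, and 0 passed the adjusted threshold, against 0.0395%. Rhox4c and Rhox8 were the 2 of 16 with all control females above all control males, against 1.85% of genes. Over both genotypes 0 Rhox genes had all females above all males, against 0.0237%. In all, 14 of 16 Rhox estimates lay above 0 with a median of 0.69, against 56.2% of all genes (median 0.07) and 309 of 448 other X-linked genes (69.0%, median 0.27). The exceptions were Rhox2b and Rhox2c, the latter with an estimate of -0.75 (SE 0.60). At E10.5 the order among controls was the other way: all control females lay below all control males in 7 of 15 Rhox genes (15.7% of all genes tested), among them Rhox6, Rhox9 and Rhox8, and above them in 1, Rhox2a (16.7% of all genes). With 2 libraries a group, such separation is common among all genes. Over both genotypes the sexes overlapped at E10.5, with Rhox9 at 970 ± 403 RPKM (SD, n = 4) in females and 952 ± 133 RPKM (SD, n = 3) in males.

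The PGC markers varied in the same direction: 11 of 11 had female minus male estimates above 0 (median 0.58), and their mean level was 6.13 in females (5.00 to 6.68) and 5.52 in males (3.37 to 6.61). Somatic markers averaged 1.22 in females (0.54 to 2.97) and 1.30 in males (0.46 to 3.49). In bulk RNA, fewer germ cells in a sort and less Rhox RNA per germ cell cannot be told apart. Without the 3 libraries that stood apart, the estimates were 0.99 for Rhox9 (limma adjusted p = 0.214) and 0.82 for Rhox6 (limma adjusted p = 0.482), while Rhox4c was at 1.63 (limma adjusted p = 0.438). With the PGC marker mean as a covariate, an alternative added after the data had been seen, they were 0.64 for Rhox9 (limma adjusted p = 0.417), 0.46 for Rhox6 (limma adjusted p = 0.524) and 1.23 for Rhox4c (limma adjusted p = 0.512). Sex and title number are largely tied at E11.5: numbers 85, 87 and 91 hold only females, and 88 and 89 only males. The samples that share a title number, a genotype and both sexes are few. Within number 90, control female exceeded control male 3 by 4.22 for Rhox9 on the log2 scale. Within number 92 the female minus male difference was -0.47 in controls and 1.58 in DCKO.

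Across the 18 E11.5 libraries Rhox6 and Rhox9 followed each other and the PGC markers. Rhox6 and Rhox9 had a Pearson r of 0.96 and a Spearman rho of 0.91 on the log2 scale (permutation p = 1e-05 for both, the smallest that 100000 resamples can give; adjusted p = 2.5e-05 and 5e-05 over 5 relations). Without the 2 libraries farthest from the median, male control 3 and male DCKO 1, r was 0.90. The coding sequences of Rhox6 and Rhox9 are 90.8% identical, so the 2 genes may share reads. The part of shared reads in this r was not tested. Rhox9 against the PGC marker mean had r = 0.92 and rho = 0.70 (permutation p = 2e-05 and 0.00171, adjusted p = 3.33e-05 and 0.00285), and r = 0.82 without male control 3 and female DCKO 4. Rhox6 against the same mean had r = 0.93 and rho = 0.79 (permutation p = 1e-05 and 0.00016, adjusted p = 2.5e-05 and 0.0004), and r = 0.83 without those libraries. Without the 3 libraries that stood apart, r was 0.71 for Rhox9 and 0.76 for Rhox6. The relation was present within each sex. For Rhox9 r was 0.72 in the 10 females, which include female DCKO 4. It was 0.97 in the 8 males, which include male control 3 and male DCKO 1. For Rhox6 these were 0.77 and 0.97. Within 1 sex r was not computed without those libraries.

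The somatic markers did not hold such a relation apart from the 3 libraries. Rhox9 against the somatic mean had r = -0.65 and rho = -0.28 (permutation p = 0.00744 and 0.256, adjusted p = 0.00744 and 0.256), and r = -0.18 without male control 3 and female DCKO 4. For Rhox6 r was -0.68 and rho -0.38 (permutation p = 0.00431 and 0.121, adjusted p = 0.00539 and 0.151), and r = -0.21 without them. Both relations rest on those 2 libraries. The other Rhox genes were only loosely tied to each other: over 120 pairs of the 16 genes at E11.5 the median rho was 0.22, from -0.31 to 0.91, with the pair of Rhox6 and Rhox9 the highest.

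**Figure D5:**
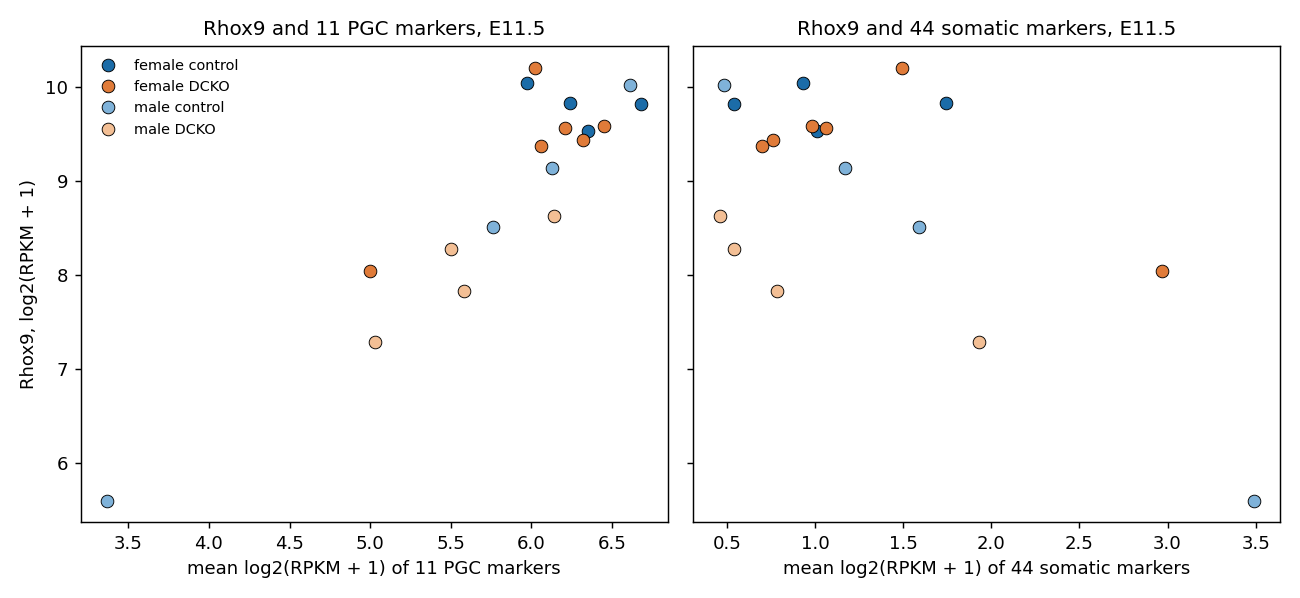
Rhox9 in each E11.5 library on the log2(RPKM + 1) scale against the mean of 11 PGC markers (left) and of 44 somatic markers (right), coloured by sex and genotype. Rhox9 follows the PGC mean (r = 0.92, and 0.71 without male control 3, female DCKO 4 and male DCKO 1). Male control 3 lies at the far left of the first and far right of the second panel. It and female DCKO 4 carry much of the relation with the somatic mean.

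Among 8701 other genes averaging 5 RPKM or more, those most like Rhox9 over the 18 E11.5 libraries by Spearman correlation of RPKM were Asns (rho = 0.88), Sox2 and Ttc5 (0.87 each), Tra2a (0.86) and Larp1 (0.85). For Rhox6 they were Tbx4 (0.87), Prr14 (0.86), Uba1 (0.85), Sox2 (0.85) and Alpl (0.85). Sox2, a pluripotency factor that PGCs express, appeared in both sets, and Alpl encodes the alkaline phosphatase long used to stain PGCs. Both belong to the 11 PGC markers used above, so they are not a separate observation. Sox2 ran from 1.96 to 45.6 RPKM over these libraries. All libraries share the amplification and the marker differences given above, and no p is attached to these ranks.

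Other genes that DNA methylation is known to hold silent in somatic cells were mostly estimated higher in DCKO. Of 20 tested methylation-sensitive germline genes, such as Dazl, Ddx4 and Mael, 18 had E11.5 genotype estimates above 0, with a median of 0.69, and 5 had an unadjusted p under 0.05, all higher in DCKO. Over all 12667 genes tested, 5700 lay above 0 and 5.46% had an unadjusted p under 0.05. None passed the adjusted threshold; Dazl came closest, with an estimate of 2.08 (SE 0.41, limma adjusted p = 0.113). The E10.5 estimates lay above 0 for 19 of 20, and their median was 1.00. The X-linked Mage and Xlr families, which are also expressed in germ cells, had 11 of 16 estimates above 0 (median 0.37) at E11.5 and 12 of 17 (median 0.50) at E10.5. The difference between these lists and the Rhox genes was not tested. The lists were chosen with earlier results of these data known, so their counts are not independent of those results.

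No gene flanking the Rhox cluster passed the threshold for genotype at E11.5 (limma; 0 of 8 also at an unadjusted p under 0.05). Of the 10 nearest genes, from Rnf113a1 to Upf3b on one side and from Zbtb33 to Cul4b on the other, 8 were tested at E11.5, and 4 had estimates above 0 with a median of -0.02, from -0.26 for Cul4b to 0.31 for Tmem255a. Within females 6 of the 8 lay above 0 (median 0.16) and within males 1 of 8 (median -0.24). Averaged over both sexes, other X-linked genes had 220 of 448 above 0 with a median of -0.01. Within females 59.4% of them lay above 0 (median 0.13) and within males 40.6% (median -0.14). Over all genes tested the shares were 47.8% and 43.6%. Of the 7 tested genes of the DNA methylation machinery, 3 lay above 0 and the median was -0.04; the only one of them to pass the threshold was Dnmt1, which fell (estimate -2.07, SE 0.34, limma adjusted p = 0.0355).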

How the data were processed

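RNA of sorted PGCs was measured in 7 libraries at E10.5 and 18 at E11.5, grouped by sex and genotype from their labels. Per the labels' protocols, RNA was amplified with the Ovation RNA-Seq System V2 kit before library preparation. The submitters' processing notes list build mm9, TopHat2 2.1.0, Cufflinks 2.2.1 and Cuffdiff, without roles. The values are RPKM per gene as the authors deposited them, in 1 table per stage; read counts were not analysed here and the gene models are not stated, so depth per library is unknown and no counting interval was computed.

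Tests covered genes averaging 1 RPKM or more (12667 at E11.5, 11584 at E10.5), on log2(RPKM + 1) with limma 3.58.1 in R 4.3.3 (trended variance), which understates changes of low genes. At E11.5 each combination of sex and genotype had its own mean (4 in all); at E10.5 genotype and sex were additive terms. P-values were two-sided and adjusted by Benjamini-Hochberg over all genes tested, with a threshold of 0.05. The script was tested on simulated data. Correlations used two-sided permutation tests in scipy 1.17.1. Named genes were all Rhox genes averaging 1 RPKM or more at either stage, Dnmt1, the 5 genes most correlated with Rhox9 and with Rhox6 among those with a mean of at least 5 RPKM, and the 5 named genes on each side of the cluster. The alternatives were a pseudocount of 0.1 RPKM, other filters, 2 other scalings, and blocks by replicate or title number. Others left out each library, or the 3 libraries highest in somatic markers, which were picked by the marker values of these data. The last took the PGC marker mean as a covariate (added after the data had been seen). Members and gene lists were chosen with earlier results of these data known.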

Additional observations from a re-analysis of the deposited data

Results flagged for a closer look

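Groups of at least 4 libraries were examined for the described Rhox genes and Dnmt1, on log2(RPKM + 1). In 6 of these 68 groups, all in E11.5 males, the highest library lay apart from the rest by Dixon's criterion. For normally distributed values chance meets it in about 1 in 20 groups, a rate not known for values with many zeros. Where all other libraries are listed at 0, as for Rhox4d and Rhox2f below, any value above 0 meets it. Rhox4d lay at 8.86 RPKM in male DCKO 4 with the other 3 DCKO males listed at 0, and at 0.45 RPKM in male control 2 with the other 3 control males listed at 0. Rhox2h lay at 19.1 RPKM in male DCKO 4, against 0.112 to 0.532 RPKM in the other DCKO males. Rhox2f lay at 6.15 RPKM in male DCKO 2, with the others listed at 0. Rhox1 lay at 4.24 RPKM in male control 1, against 0.361 to 0.628 RPKM. Dnmt1 lay at 296 RPKM in male control 4, against 75.9 to 94.8 RPKM in the other control males. Male control 4 and male DCKO 4 had the fewest genes at 1 RPKM or more of the E11.5 libraries (8277 and 8607). Whether this bears on their values was not tested.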

How the results depend on the processing

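No Rhox gene passed the adjusted threshold under any alternative (0 of 2307 values, lowest adjusted p = 0.214 for Rhox9 between the sexes without the 3 libraries highest in somatic markers). The counts of all genes passing were small and moved: in females from 1 to 2 with a pseudocount of 0.1 RPKM, without a filter or with a replicate block; in males from 4 to 2 with the replicate block, and to 1 with a title number block or without the 3 libraries; for the interaction from 0 to 1 with the replicate block; between the sexes from 5 to 9 with a pseudocount of 0.1 RPKM, to 2 with the replicate block and to 1 with the title number block. Leaving out 1 library gave 2 to 5 genes for genotype at E11.5, 1 to 2 in females, 1 to 4 in males, 0 to 1 for the interaction, 4 to 11 between the sexes and 0 to 11 at E10.5, with 0 Rhox genes throughout. The replicate numbers gave no sign of pairing (median correlation of same-numbered deviations 0.01 at E11.5, 5 of 24 pairs above 0.1). For the title number it was 0.08 against -0.00 for other pairs, up to 0.49, with 7 of 16 pairs above 0.1, so some but not all of its libraries deviated together; at E10.5 no pair reached 0.1.

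Of 38 named Rhox estimates 12 changed sign in some alternative, as did 34 of the 57 others. With the replicate block Rhox13 at E11.5 was -0.17. With the title number block Rhox4c in males was -0.11, the interaction of Rhox9 was 0.10 and Rhox6 at E10.5 was 0.03. Without the 3 libraries the interactions of Rhox6 and Rhox9 were 0.34 and 0.80, and that of Rhox9 was 0.35 with the PGC covariate. Quantile normalization gave -0.08 for Rhox9 at E10.5. Leaving out 1 library, E10.5 estimates ran from -0.67 to 1.85 for Rhox1, -0.07 to 1.49 for Rhox13, -0.47 to 0.35 for Rhox6, -0.08 to 1.50 for Rhox7a and -0.22 to 0.44 for Rhox9. At E11.5 they ran from -0.19 to 0.51 for Rhox13 and -0.31 to 0.54 for Rhox7a, in males from -1.01 to 0.35 for Rhox6 and -1.21 to 0.26 for Rhox9, and for the interaction from -1.08 to 0.28 and -0.70 to 0.77. The causes were not tested. The sex estimates of Rhox6, Rhox9 and Rhox4c kept their direction under every alternative run.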
